A study of Rattus norvegicus with 372 samples.

Results

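Naproxen, an anti-inflammatory drug of the propionic acid type that inhibits the cyclooxygenases, was given at 80 µM to primary rat hepatocytes in 6 of the wells measured by the whole-transcriptome (WT) TempO-Seq assay. These wells were chosen by their labels for chemical, concentration and batch, and they were compared with the 9 vehicle wells of the same batches. TempO-Seq ligates a pair of detector oligos on a transcript and counts the ligated probes, and the same lysates were also run by the smaller surrogate transcriptome (ST) assay, which gave 372 libraries in all, of which 12 held naproxen at 80 µM. The hepatocytes came from male Wistar rats, were kept in collagen sandwich in medium with insulin, dexamethasone and epidermal growth factor, and were treated for 24 h. All treated and vehicle wells contained 0.5% DMSO. Batch 1 had 3 wells of naproxen at 80 µM and 3 of vehicle on 1 plate. Batch 2 had 3 naproxen wells and 3 vehicle wells on the same plate, and 3 further vehicle wells on another plate. Each batch is 1 rat, so the wells of a batch are technical replicates, the p-values rest mostly on the spread between wells, and animal, library preparation and sequencing run cannot be told apart. Naproxen wells stood in plate rows B and C and vehicle wells in rows F and G in both batches, so plate row and treatment cannot be told apart either.

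Fatty acids and many synthetic acids with a lipophilic tail can bind PPARα (peroxisome proliferator-activated receptor alpha), a nuclear receptor that pairs with RXR and binds direct repeats of a short hexamer with 1 base between them, known as DR1 elements. In rodent liver its best known targets are the CYP4A enzymes, which hydroxylate fatty acids at the omega end, the enzymes that shorten fatty acids in peroxisomes and mitochondria, and fatty acid binding proteins. WY14643 is a synthetic PPARα agonist that was part of the same experiment. Naproxen's own targets, Ptgs1 and Ptgs2, make the prostaglandin precursor from arachidonic acid.

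The promoter of Fabp1, the liver fatty acid binding protein, is shown because Fabp1 was among the genes that rose most and because its promoter holds a match to a DR1 motif. The 250 bases before its RefSeq start lie on chromosome 4 of GRCr8 at chr4:104749090-104749339 on the plus strand, and the capitals mark the match, which reads as the motif on the minus strand at chr4:104749263-104749275.
Fabp1 promoter: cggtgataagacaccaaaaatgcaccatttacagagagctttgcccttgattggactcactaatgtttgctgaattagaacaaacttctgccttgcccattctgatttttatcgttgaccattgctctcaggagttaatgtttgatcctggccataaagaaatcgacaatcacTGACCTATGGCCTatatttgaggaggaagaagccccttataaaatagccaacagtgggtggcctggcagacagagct
The motif searched was AGGNCANAGGNCA, on both strands, in the window from 250 bases before to 50 bases after the start. Of the 96 genes named by a rule, 68 had a promoter in the RefSeq table, and 3 of them held a match. The matches are shown in the orientation of the motif to set them side by side, with Cyp2d1 coding for a drug-metabolizing cytochrome P450 (chr7:115793495-115793507) and Asgr1 for the hepatocyte receptor for desialylated glycoproteins (chr10:55274358-55274370).
Fabp1: AGGCCATAGGTCA
Cyp2d1: AGGACAAAGGACA
Asgr1: AGGTCACAGGGCA
A match stood in 0.412% of 27457 promoters in the table, in 0.332% of the 7535 promoters of tested genes, in 9 of 640 promoters of genes that were higher with naproxen and in 1 of 560 of genes that were lower. Among the 48 promoters of tested genes of the fatty acid lists, 1 held a match, that of Fabp1. These counts describe letters in a short window and say nothing of binding. Cyp4a1 had no entry in the table.

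In the WT libraries used here, naproxen wells had 7550006 to 8655622 reads in batch 1 and 5237188 to 6826801 in batch 2, and vehicle wells had 5492941 to 8264980 and 5788931 to 7199877. Probes that share a symbol were pooled by adding their counts, which gave 20946 genes, and the 10191 genes that averaged 10 counts or more over all wells were tested. Naproxen at 80 µM was followed by 1635 differentially expressed genes (DEGs, Benjamini-Hochberg adjusted p under 0.05, edgeR quasi-likelihood test) with both batches together. Of these, 881 were higher (8.64% of the genes tested) and 754 were lower (7.4%). The rises were the larger ones, with 149 DEGs at least 2-fold higher and 20 at least 2-fold lower. L2FC (log2 fold change of naproxen against vehicle) ran from -1.72 to 5.56 among the DEGs and its median over all genes tested was 0. In batch 1 alone, 654 genes were higher (6.42%) and 297 lower (2.91%). In batch 2 alone, 478 were higher (4.69%) and 384 lower (3.77%). Leaving out 1 well lowered the count of DEGs from 951 to 581 (naproxen well B09) or 619 (vehicle well G11) in batch 1 and from 862 to 411 (naproxen well B09) or 453 (naproxen well C09) in batch 2. Called by each batch alone were 406 genes, of which 1 went in opposite directions. The count depended on the wells used for the spread and on the control: 2575 genes were called when only naproxen and vehicle wells were fitted, and 969 when naproxen was compared with the mean of the 13 other low concentrations in place of vehicle. Counts within lists from the first of these fits stand against 2575 of 10191 genes, not against the shares of the main fit.

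The CYP4A enzymes showed the largest rise of all genes tested. Cyp4a1 was at 145, 157 and 184 CPM (counts relative to library size, TMM-normalized with the factors of edgeR) in the naproxen wells of batch 1 and at 1.08, 1.61 and 2.39 CPM in the vehicle wells. In batch 2 the naproxen wells held 13.3, 15.2 and 40.8 CPM, and the vehicle wells 0.832 to 2.32 CPM with a median of 1.64. Every naproxen well was above every vehicle well in both batches, and the naproxen wells of batch 1 were all above those of batch 2. L2FC was 5.56 ± 0.38 (SE, adjusted p = 2.69e-28), which is 47-fold. Cyp4a2, a close relative, was at 763, 779 and 786 CPM with naproxen against 9.97, 10.5 and 12.3 CPM with vehicle in batch 1. In batch 2 it was at 63.4, 68.8 and 148 CPM against 7.96 to 13.2 CPM, and its L2FC was 5.08 ± 0.31 (adjusted p = 3.33e-32). The genes of this family resemble each other closely, so a probe may also have taken up transcripts of a relative, and the 3 tested probes of Cyp4a2 had L2FC from 4.03 to 6.03. Both rose in both assays, with an ST L2FC of 5.85 for Cyp4a1.

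All 12 tested genes for peroxisomal beta oxidation rose, with a median L2FC of 1.01. Ehhadh, the bifunctional enzyme of the pathway, was at 70.4, 72.7 and 79.8 CPM with naproxen in batch 1 and at 0.853, 1.96 and 3 CPM with vehicle. In batch 2 its naproxen wells held 3.35, 5.34 and 10.3 CPM, against 0.713 to 2.46 CPM in vehicle wells, so the groups did not overlap in either batch. Its L2FC was 4.14 ± 0.27 (adjusted p = 1.2e-29). Ech1, which shifts double bonds of unsaturated fatty acids, was at 266, 269 and 290 CPM against 34.1, 39.8 and 41.7 CPM in batch 1 and at 112, 115 and 134 CPM against 33.1 to 51.2 CPM in batch 2 (L2FC 2.25 ± 0.16). Pex11a, a membrane protein needed for peroxisome division, rose with an L2FC of 1.69 ± 0.20 (adjusted p = 9.75e-12). The smallest value of the list was 0.48 for Amacr. The 7 tested acyl-CoA thioesterases, which release fatty acids from coenzyme A, all rose as well, with a median of 1.04. In batch 1 alone 11 of the 12 peroxisomal genes and 6 of the 7 thioesterases were called, and in batch 2 alone 9 and 3. An unadjusted p under 0.05 by edgeR in each batch was reached by 10 of the 12 and 4 of the 7. Genes entered the test by their mean over all wells, so 1 scarce in naproxen and vehicle wells could enter through other treatments. Against WY14643 at 8 µM the lowest thioesterase had an L2FC of -11.10. Against culture medium, Acot1 had the largest SE of the thioesterases (L2FC 2.67 ± 0.88). The median L2FC was 1.30 and 1.44 in batch 1 and 0.64 and 0.73 in batch 2. Of the thioesterases, Acot4 had an L2FC of 1.57, Acot12 of 1.07 and Acot2 of 1.04.

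**Figure D1:**
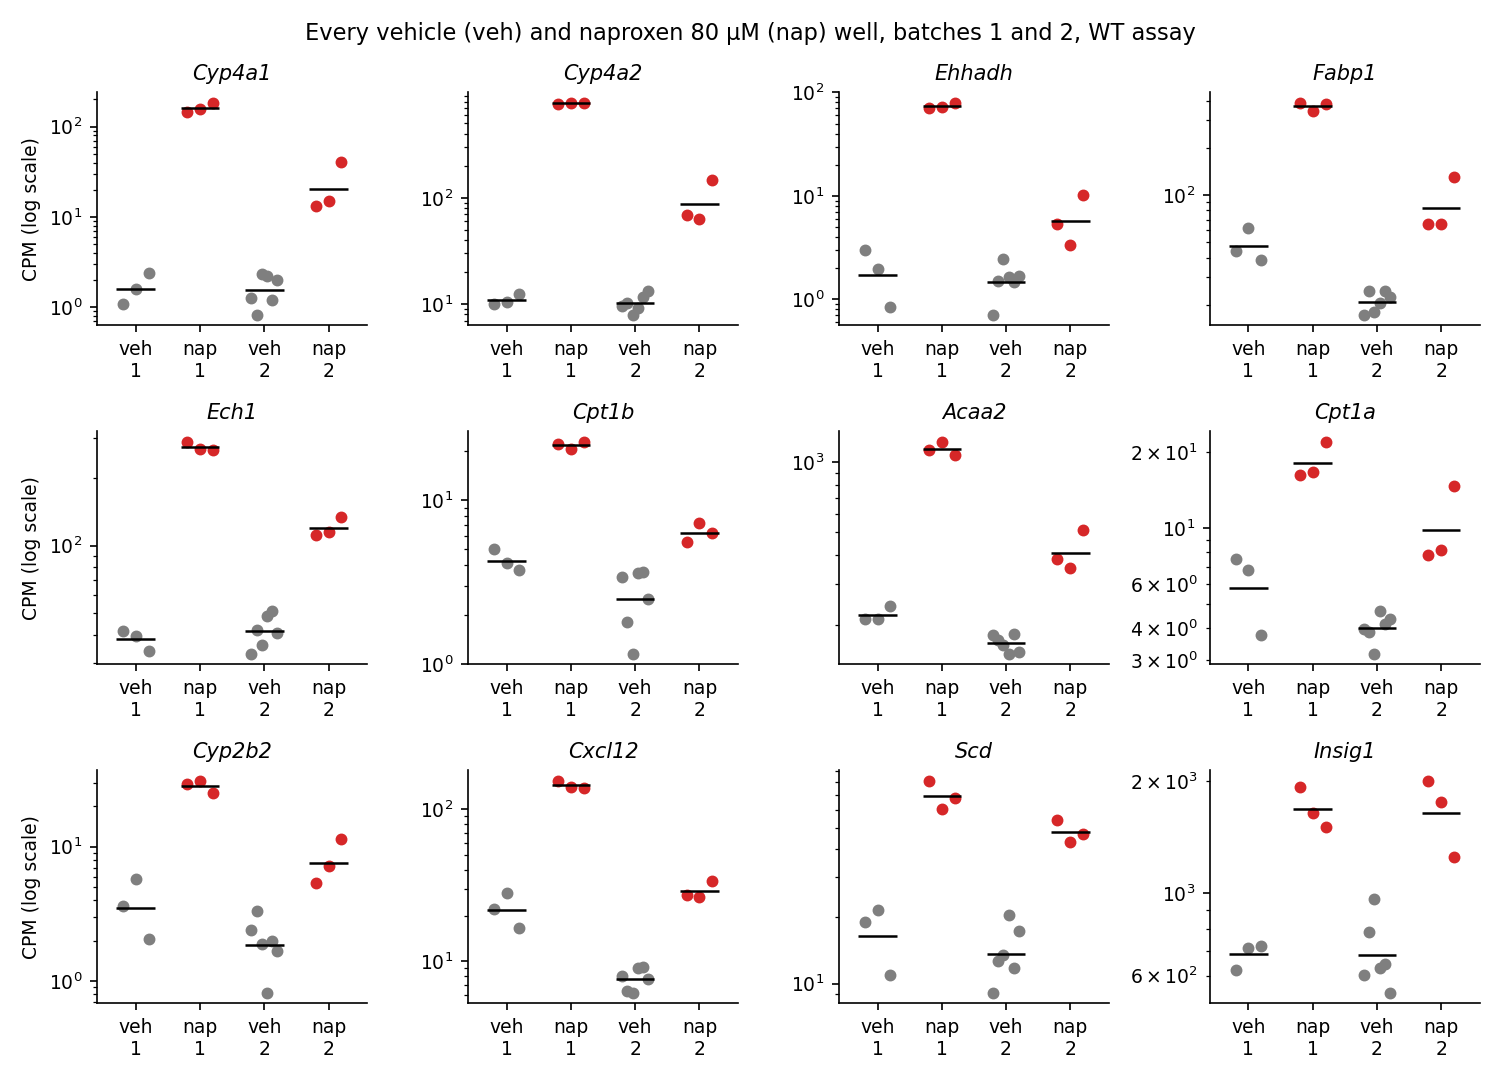
Normalized expression (CPM, log scale) of 12 genes in every vehicle (grey) and naproxen 80 µM (red) well of the WT assay, with the geometric mean as a bar, for batch 1 and batch 2. Naproxen wells lay above all vehicle wells of their batch for each gene, for example 763 to 786 CPM against 9.97 to 12.3 CPM for Cyp4a2 in batch 1.

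The genes of the carnitine shuttle and of mitochondrial beta oxidation were higher without exception among the 18 tested, from an L2FC of 0.36 for Etfb, a subunit of the electron transfer flavoprotein, to 2.06 for Cpt1b, and the median was 1.13. All 18 were also called in batch 1 alone and 16 in batch 2 alone, with medians of 1.49 and 0.81. Cpt1a, the liver form of the enzyme that lets long-chain fatty acids into mitochondria, was at 16.2, 16.7 and 22 CPM with naproxen against 3.75, 6.79 and 7.57 CPM with vehicle in batch 1. It was at 7.81, 8.17 and 14.7 CPM against 3.18 to 4.68 CPM in batch 2. The wells did not overlap, and L2FC was 1.54 ± 0.21 (adjusted p = 2.81e-09). Cpt1b, the muscle form, was at 20.6 to 22.7 CPM against 3.75 to 5.05 CPM in batch 1 and at 5.53 to 7.29 CPM against 1.16 to 3.62 CPM in batch 2. Acaa2, the thiolase of the last step, was far more abundant, at 1080, 1130 and 1230 CPM against 212, 212 and 240 CPM in batch 1 and at 349, 382 and 509 CPM against 150 to 183 CPM in batch 2. Its L2FC was 1.91 ± 0.16, close to that of Hadh, the dehydrogenase before it (1.95 ± 0.14).

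Of 19 tested genes for fatty acid uptake, lipid droplets and PPAR-driven hormones, 9 rose by edgeR and by DESeq2, with a median L2FC of 0.51. By edgeR 8.64% of all genes were higher. Neither tool called one as lower, and 1 was lower at an unadjusted p under 0.05. Fabp1 was at 345, 378 and 388 CPM with naproxen against 38.7, 44.3 and 61.8 CPM with vehicle in batch 1, and at 65.2, 65.8 and 130 CPM against 17.4 to 24.5 CPM in batch 2. This was an L2FC of 2.62 ± 0.27 (adjusted p = 8.86e-16), or 6.15-fold. Acsl1, which activates long-chain fatty acids, was at 773, 911 and 1120 CPM against 130 to 137 CPM in batch 1, but at 197, 222 and 275 CPM against 126 to 149 CPM in batch 2. Vnn1, a pantetheinase, had an L2FC of 1.65 ± 0.14. Plin2, the coat protein of lipid droplets, rose by 1.10, but was at 0.16 against culture medium (adjusted p = 0.231). Not every PPAR target of the list rose. Pdk4, a kinase that closes pyruvate dehydrogenase and a strong target of PPARα in many tissues, had 3 to 8 counts per naproxen well in batch 1 and at most 1 in batch 2, with at most 2 counts in any vehicle well, so it is given no fold change. For Fgf21, a fasting hormone of the liver, L2FC was 0.44 and did not pass the test.

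**Figure D2:**
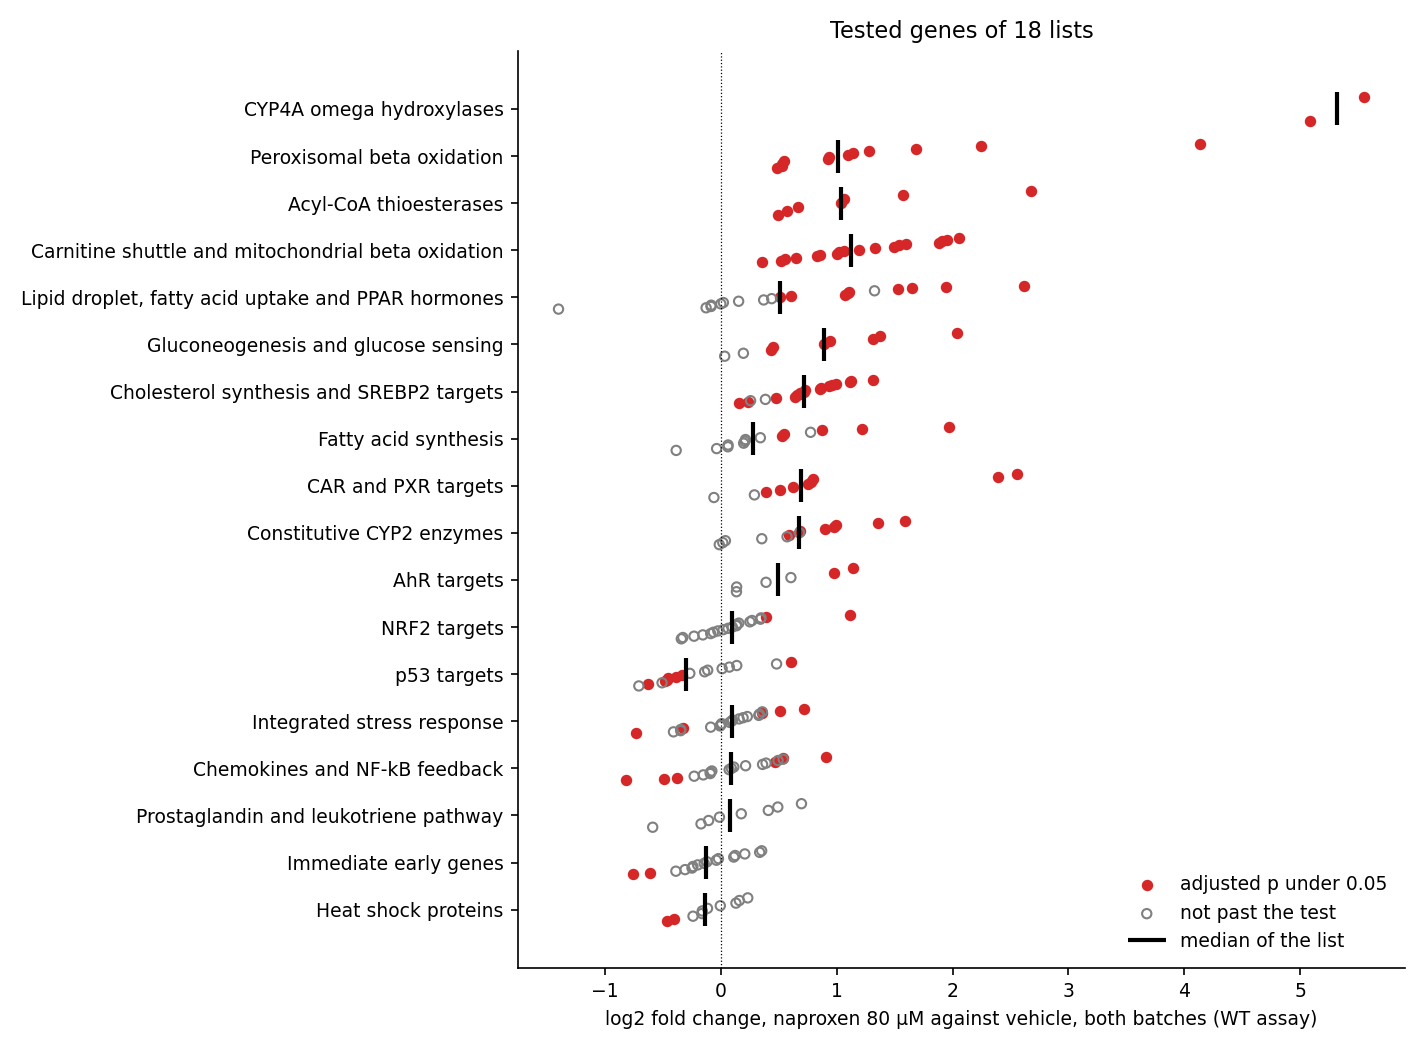
L2FC of naproxen 80 µM against vehicle (both batches, WT assay, x axis) for the tested genes of 18 lists, with filled points for an adjusted p under 0.05 and a bar at the median of each list. All tested genes of the CYP4A, peroxisomal, thioesterase and mitochondrial lists were called and higher, against 8.64% of all genes tested.

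Responses were larger in batch 1 than in batch 2 for many of these genes. The difference of L2FC between the batches was called for 46 genes (0.451% of the genes tested, edgeR interaction test), of which 37 had the lower value in batch 2. In 32 of the 46, the gene was higher with naproxen in both batches and more so in batch 1. Ehhadh had an L2FC of 5.19 in batch 1 and 1.99 in batch 2 (difference -3.18 ± 0.46, adjusted p = 3.01e-07). For Cyp4a2 the values were 6.18 and 3.18, for Cyp4a1 6.64 and 3.82, and for Acsl1 2.84 and 0.74. Retsat, which saturates retinol and is a known PPAR target, had 239, 241 and 245 CPM against 81.3 to 91.5 CPM in batch 1, but 41, 48.4 and 49.4 CPM against 36.9 to 46.1 CPM in batch 2, where the wells overlapped. Dbp, a transcription factor of the circadian output, showed the same pattern, with L2FC of 1.74 and 0.13. No difference was called for Dhrs7l1, a short-chain dehydrogenase, whose L2FC was 2.32 and 2.30.

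The opposite pattern came from cell division. Among the 17 tested genes of the cell cycle and DNA replication list, 3 fell in batch 1 (2.91% of all genes did) and 6 rose in batch 2 (4.69% did). With both batches together Aurka alone was called, where 8.64% of all genes were higher. The difference between the batches was called for 3 of the 17 (0.451% of all genes). Against culture medium 8 of the 17 were higher (11.7% of all genes were) with a median L2FC of 0.49. No gene of the list rose in batch 1 or fell in batch 2 by edgeR or DESeq2, also not at an unadjusted p under 0.05. Named after its values were seen, Mcm5, a subunit of the replicative helicase, had an L2FC of -0.79 in batch 1 and 1.23 in batch 2 (adjusted p = 0.00958 for the difference). Mcm6, another subunit, had -1.14 and 0.77, and Aurkb, a mitotic kinase, -0.41 and 1.38.

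In each batch 1 naproxen well held the highest value for more of the 96 named genes than the others. In batch 1 it was B09, with 46 genes against 27 and 23 for C09 and B11, and in batch 2 it was C09, with 44 against 27 and 25 for B09 and B11. Without B09, the L2FC of batch 1 went from 6.64 to 6.68 for Cyp4a1 and from 2.97 to 2.89 for Fabp1. That of Cd68 went from 0.86 to 0.45, and Cyp1a1, Fga and Fgb, called in batch 1 with all its wells, then had adjusted p of 0.0621, 0.0953 and 0.181 by edgeR. Without C09, the L2FC of batch 2 went from 3.82 to 3.12 for Cyp4a1, from 3.18 to 2.68 for Cyp4a2, from 1.99 to 1.42 for Ehhadh and from 2.03 to 1.62 for Fabp1, and all 4 were still called. In batch 1, the 10 most abundant probes took 15.6% to 16.7% of the reads of the naproxen wells and 12.5% to 14.0% of the vehicle wells, whereas in batch 2 the shares were 10.7% to 11.6% and 10.5% to 11.7%. The part of this in the batch difference was not tested.

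**Figure D3:**
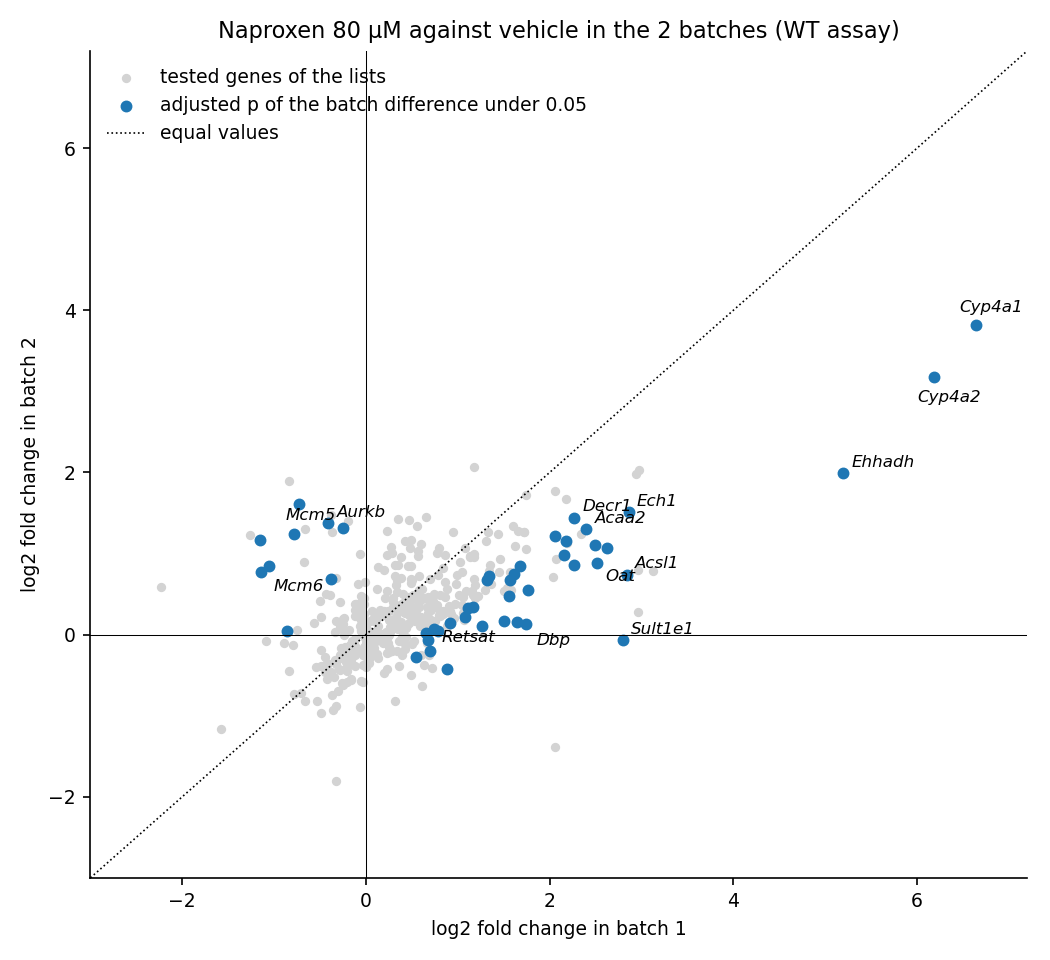
L2FC of naproxen 80 µM against vehicle in batch 1 (x axis) and batch 2 (y axis, WT assay) for the tested genes of the lists (grey) and the 46 genes whose L2FC differed between the batches (blue), with a dotted line at equal values. Most genes of fatty acid oxidation lie right of the line, with Cyp4a2 at 6.18 and 3.18, and Mcm5 lies left of it at -0.79 and 1.23.

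The other concentration of naproxen and the agonist WY14643 place these values on a scale. Mean Cyp4a1 rose from 1.69 CPM with vehicle to 162 CPM with naproxen at 80 µM and 997 CPM at 2000 µM in batch 1, and stood at 3080 CPM with WY14643 at 8 µM. In batch 2 the means were 1.64, 23.1, 867 and 2370 CPM. Ordered by mean, naproxen at 80 µM ranked 8 of 30 groups for Cyp4a1 in batch 1 and 9 of 30 in batch 2, and 2 of the 13 other low concentrations were above it in each batch. Against naproxen at 2000 µM, 2413 genes were higher at 80 µM (23.7%) and 2417 lower (23.7%). Of the fatty acid genes, both CYP4A enzymes, 6 of 7 thioesterases, 9 of 12 peroxisomal genes and 14 of 18 mitochondrial genes were lower at 80 µM. Against WY14643 at 8 µM, 2054 genes were higher (20.2%) and 2047 lower (20.1%), and all 18 mitochondrial genes were lower, by a median L2FC of -2.07. The doses differ, so these are values side by side and not a ranking of the compounds.

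Some genes did not follow this order. Cxcl12, a chemokine that keeps leukocytes and stem cells in place, was at 139, 140 and 155 CPM with naproxen at 80 µM in batch 1, above its mean of 84.6 CPM at 2000 µM, but at 26.5, 27.4 and 33.8 CPM in batch 2, below a mean of 111 CPM. Its vehicle wells held 16.5 to 28.2 CPM in batch 1 and 6.22 to 9.12 CPM in batch 2, and L2FC against vehicle was 2.45 ± 0.21 (adjusted p = 3.07e-20). Aox3, an aldehyde oxidase, rose to 51.8, 64.1 and 86.7 CPM from 13.8 to 17.5 CPM in batch 1 and to 18.9, 20.8 and 22.9 CPM from 4.71 to 8.83 CPM in batch 2. At 2000 µM its means were 1.03 and 2.51 CPM, and 80 µM was higher by an L2FC of 4.54 (adjusted p = 2.76e-16). Pdk4 was close to absent at 80 µM and reached means of 54.9 and 66.1 CPM at 2000 µM. Cyp1a1 was higher at 80 than at 2000 µM as well, by an L2FC of 1.05 (adjusted p = 3.15e-05).

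**Figure D4:**
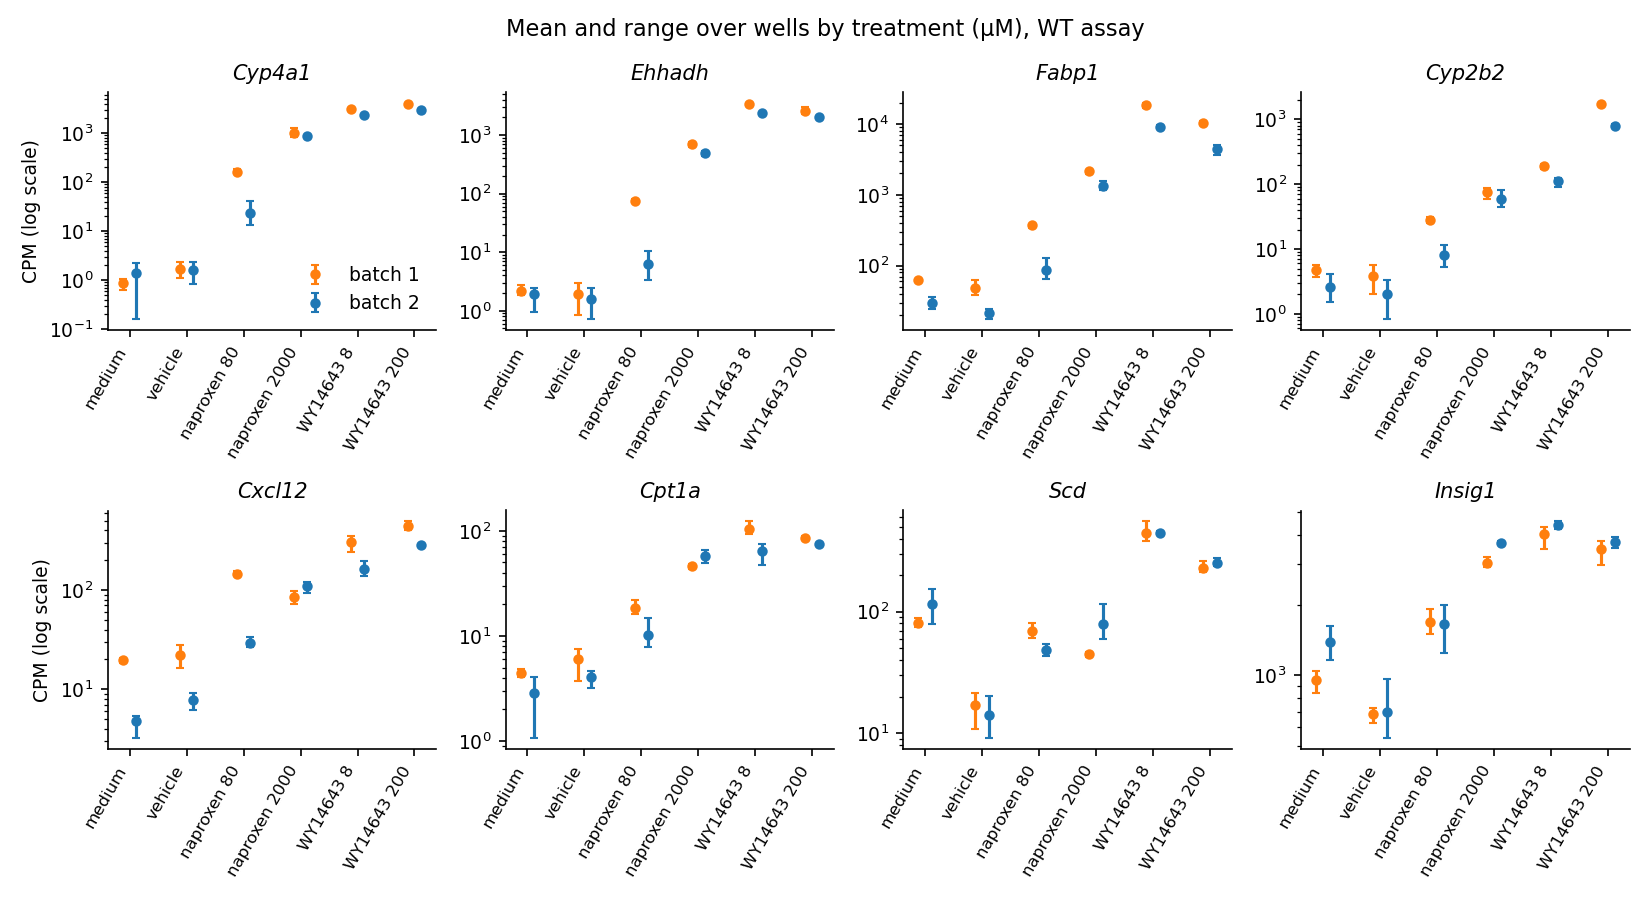
Mean CPM (log scale) of 8 genes with culture medium, vehicle, naproxen at 80 and 2000 µM and WY14643 at 8 and 200 µM in batch 1 (orange) and batch 2 (blue), with bars from the lowest to the highest well. Cyp4a1 with naproxen at 80 µM (162 and 23.1 CPM) lies between vehicle and naproxen at 2000 µM, while Cxcl12 in batch 1 was higher at 80 µM (145 CPM) than at 2000 µM (84.6 CPM).

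When naproxen at 80 µM was compared with the mean of the 13 other low concentrations, 633 genes were higher (6.21%) and 336 lower (3.3%). Many fatty acid genes differed from this mean. Both CYP4A enzymes, 9 of 12 peroxisomal genes and 17 of 18 mitochondrial genes were higher, with medians of 3.23, 0.44 and 0.62, although WY14643 at 8 µM is among the 13. Of the thioesterases, 2 of 7 were called. Single groups among the 13 had higher means than naproxen, 2 of them in batch 1 and 3 in batch 2 for Cyp4a2, Ehhadh, Cpt1b, Acaa2 and Acsl1. Against culture medium without DMSO, 1188 genes were higher (11.7%) and 1229 lower (12.1%), and the counts of higher genes in the CYP4A, peroxisomal and mitochondrial lists were 2 of 2, 12 of 12, 17 of 18 and, for the thioesterases, 7 of 7.

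Enzymes of drug metabolism rose in part. Of 10 tested targets of the xenobiotic receptors CAR and PXR, 8 were higher (8.64% of all genes were), with a median L2FC of 0.69, although the number called fell to 5 when single wells were left out. Cyp2b2, the classical phenobarbital-inducible enzyme of the rat, was at 25.2, 29.1 and 31 CPM against 2.05, 3.6 and 5.71 CPM in batch 1 and at 5.34, 7.15 and 11.5 CPM against 0.825 to 3.33 CPM in batch 2. Its L2FC was 2.56 ± 0.31 (adjusted p = 6.73e-12). Its near-identical neighbour Cyp2b1, whose probe could share transcripts with it, had 17 to 35 counts per naproxen well in batch 1 and 2 to 4 in batch 2. Vehicle wells had at most 3 counts, so no fold change is given. The probes of Cyp2b3 and Cyp2c6v1 rose by L2FC of 0.78 and 0.79. Neither was called against the other low concentrations, where adjusted p was 0.0777 and 0.461, nor with the vehicle wells of the same plate, where it was 0.074 and 0.102 and 6 of the 10 tested CAR and PXR targets were called.

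Among 13 tested constitutive CYP2 enzymes, 7 rose, with a median L2FC of 0.68 (8.64% of all genes were higher). In batch 1 alone 4 rose and in batch 2 alone 7. Against culture medium 5 were higher with a median of 0.12, and the ST assay called 3 of 10. The most raised was Cyp2c13, with 103 to 112 CPM against 32.1 to 60.7 CPM in batch 1 and 7.73 to 33.3 CPM against 3.17 to 6.52 CPM in batch 2 (L2FC 1.59 ± 0.33). Cyp2d1 was at 223 to 241 CPM against 65.8 to 83.6 CPM in batch 1 and at 164 to 180 CPM against 70.4 to 88.8 CPM in batch 2. Its WT L2FC was 1.35 ± 0.13, whereas the ST value was 0.18. Cyp2j4, which forms epoxides of arachidonic acid, rose by 0.99. Of 6 AhR targets, the genes switched on by the aryl hydrocarbon receptor, Cyp1a1 and Aldh3a1 were called. Cyp1a1 had 47.1, 63.7 and 72.1 CPM with naproxen against 25.8, 35.2 and 35.6 CPM with vehicle in batch 1 and 73.5, 83.7 and 86.6 CPM against 27.2 to 40.7 CPM in batch 2. The groups did not overlap, and L2FC was 1.14 ± 0.20 (adjusted p = 3.82e-06). Among conjugating enzymes, Sult2a2, which adds sulfate to steroids and bile acids, rose by 1.80 ± 0.26, Sult1b1 by 0.50 and Ugt2b15 by 0.46, and the other 8 of 11 did not pass the test by edgeR, while DESeq2 also called Sult1e1. In batch 1 alone 5 of the 11 were higher, as were 5 with only naproxen and vehicle wells fitted and 6 with 1 mean per treatment and batch. Of 17 glutathione transferases, Gstz1, Mgst1, Gstt2, Gsta4 and Gstt1 rose by 0.40 to 0.52, where 8.64% of all genes were higher. In batch 2 alone 1 was higher and 1 lower, and against culture medium 5 were higher and 3 lower. With only naproxen and vehicle wells fitted, which called more of all genes than the main fit, 9 were higher and 2 lower.

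Bile acid and transport genes were mixed. Akr1d1, a reductase of bile acid synthesis, was at 181 to 218 CPM against 59.6 to 64.5 CPM in batch 1 and at 44.3 to 90.3 CPM against 20.3 to 29.2 CPM in batch 2, an L2FC of 1.57 ± 0.23. Nr0b2, a repressor of that synthesis, was also called, and the other 4 tested genes of the list were not. Against culture medium 4 of the 6 were higher and 1 lower, with a median of 0.57, where it was 0.03 against vehicle. Of 12 transporters, 4 rose and 2 fell, where 8.64% of all genes were higher and 7.4% lower. Against the other low concentrations 3 were higher and 0 lower, and against culture medium 3 were higher and 3 lower. The ST assay called 2 of 11 higher and 4 lower. The bile salt pump Abcb11 rose by 0.75, while it was at -0.04 against culture medium. The anion carrier Slc22a8 fell by 0.77 and the efflux pump Abcc3 by 0.64. Slc30a10, a manganese exporter, rose by 0.97 ± 0.14 while the metallothioneins of its list did not pass the test.

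Cholesterol synthesis genes rose against vehicle, with 17 of 19 tested called (8.64% of all genes were higher) and a median L2FC of 0.72. They are targets of the transcription factor SREBP2. Insig1, which holds SREBPs in the endoplasmic reticulum, was at 1510, 1640 and 1930 CPM with naproxen against 623, 713 and 722 CPM with vehicle in batch 1 and at 1250, 1760 and 2010 CPM against 540 to 966 CPM in batch 2. Its L2FC was 1.31 ± 0.14 (adjusted p = 7.06e-15). Cyp51, a demethylase late in the pathway, rose by 1.11. The number called was 6 in batch 1 and 14 in batch 2. This rise was tied to the control used. Against the mean of the other low concentrations, 3 of 19 were called, Insig1 among them, and the median was 0.14 (6.21% of all genes were higher). Among these concentrations, simvastatin at 2.4 µM had the highest mean of Cyp51 (262 and 185 CPM in batches 1 and 2). WY14643 at 8 µM had the highest mean of Insig1 (4040 and 4400 CPM). Against culture medium 10 were called with a median of 0.38, where 11.7% of all genes were higher.

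**Figure D5:**
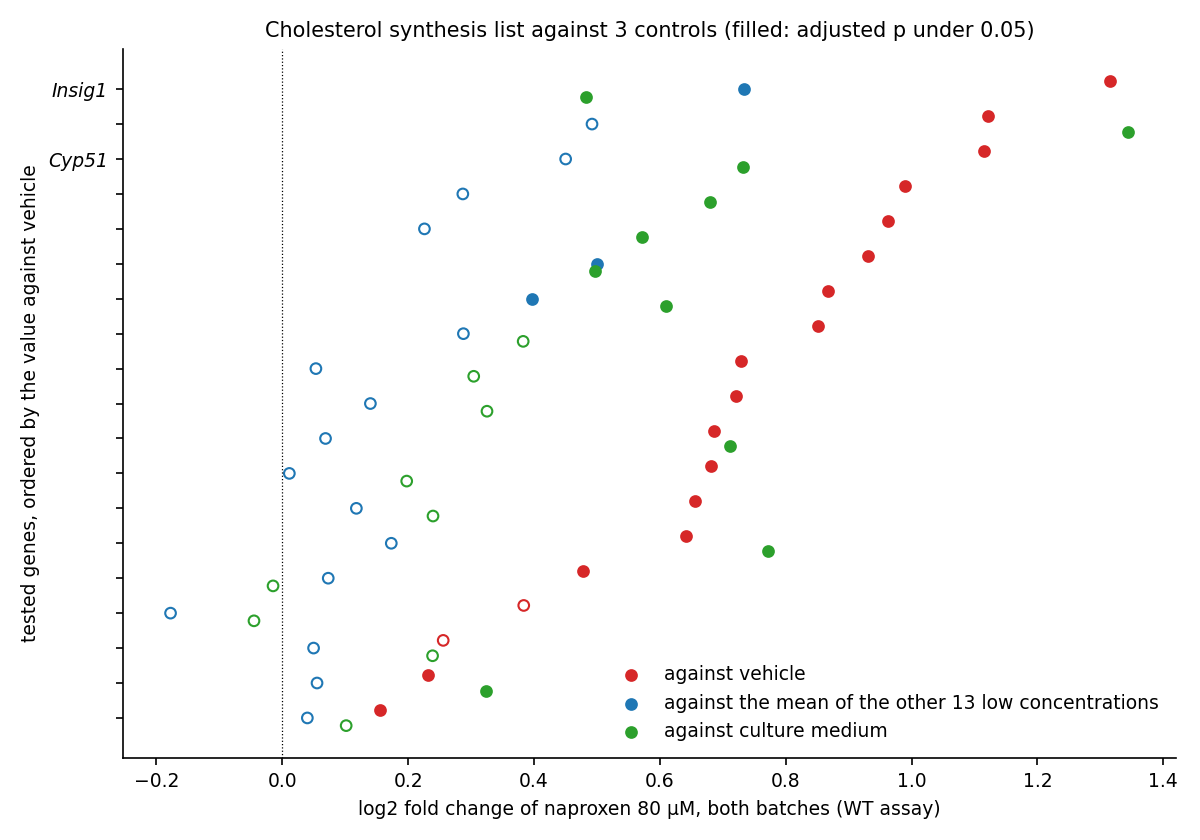
L2FC of naproxen 80 µM (x axis, both batches, WT assay) for the 19 tested genes of the cholesterol synthesis list against vehicle (red), the mean of the other 13 low concentrations (blue) and culture medium (green), ordered by the value against vehicle on the y axis, with filled points for an adjusted p under 0.05. Filled points number 17 against vehicle, 3 against the other low concentrations and 10 against medium.

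Fatty acid synthesis depended on the control even more. Against vehicle 5 of 14 genes rose. Against culture medium 5 fell and none rose by edgeR (1 at an unadjusted p under 0.05, DESeq2 not run with this control), where 12.1% of all genes were lower and 11.7% higher. Those that fell were Acaca, Fasn, Acly, Scd and Pklr, which make or feed fatty acids. Scd, the desaturase that makes oleate, was at 60.8, 68 and 81.2 CPM with naproxen against 10.9, 18.9 and 21.4 CPM with vehicle in batch 1, and at 43.3, 46.8 and 54.3 CPM against 9.13 to 20.4 CPM in batch 2. Culture medium had means of 80.3 and 116 CPM, so L2FC was 1.97 ± 0.18 against vehicle and -0.82 against medium. Thrsp, a nuclear protein linked to lipogenesis, rose by 1.22 and Srebf1, the gene of SREBP1, by 0.88. Both were also called against the other low concentrations, by 0.80 and 0.50, but not against culture medium, where L2FC was 0.12 and 0.31.

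Of 9 tested genes of glucose production and glucose sensing, 7 rose, with a median L2FC of 0.89, where 8.64% of all genes were higher. In batch 1 alone 5 were called with a median of 1.17, and in batch 2 alone 4 with a median of 0.36, where 2 of the 9 had a negative value. Pck1, which commits carbon to glucose, was at 10.9, 11.3 and 14.7 CPM against 3.41, 3.96 and 6.43 CPM in batch 1 and at 5.91, 8.29 and 8.46 CPM against 2.6 to 5.82 CPM in batch 2. Its L2FC was 1.31 ± 0.26 (adjusted p = 3.77e-05), and at 2000 µM it was higher still, by 2.94 on the log2 scale. Against the other low concentrations Pck1 was at 0.35 and was not called (adjusted p = 0.257), 6 of the 13 had a higher mean in batch 2, and 4 of the 9 genes were called with a median of 0.35. Pc, pyruvate carboxylase, rose by 1.37 ± 0.16 and Fbp1, fructose bisphosphatase, by 0.94 ± 0.11. Of 13 clock genes, Dbp, Hlf and Per3 were called, with the larger L2FC in batch 1. Of 18 genes of hypoxia and glycolysis, Vegfa, Ldha and Pdk1 rose by 0.71, 0.62 and 0.54, while against culture medium 4 of the 18 fell (12.1% of all genes did) and Vegfa and Pdk1 were both at 0.14. With only naproxen and vehicle wells fitted, 7 of these 18 genes were higher, and 6 of the 13 clock genes were higher and 1 lower. That fit called more of all genes than the main one.

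The pathway that naproxen blocks was thinly expressed. Of 29 genes of the prostaglandin and leukotriene list, 25 were on the assay and 8 had enough counts to be tested. With both batches together and all wells fitted, none was called against vehicle by edgeR or by DESeq2, and 2 were higher and 1 lower at an unadjusted p under 0.05 by both. When only naproxen and vehicle wells were fitted, which called more of all genes than the main fit, 2 of the 8 were called higher. With 1 mean per treatment and batch 1 was. Against culture medium 1 was higher (Ptgr2, L2FC 0.50) and 2 were lower (Ptges2, -0.34, and Pla2g6, -0.32). There 11.7% of all genes were higher and 12.1% lower. In batch 1 alone, both tools called Ptgr1, a reductase that inactivates prostaglandins and leukotrienes (L2FC 0.72, adjusted p = 0.00663). Ptgs1 was at 1.97, 2.03 and 2.56 CPM with naproxen against 1.56, 2.22 and 3.39 CPM with vehicle in batch 1 and at 0.614, 0.729 and 2.1 CPM against 0.939 to 2.6 CPM in batch 2. The wells overlapped in both batches (L2FC -0.59 ± 0.29, adjusted p = 0.163). Ptgs2 had 12 to 16 counts per naproxen well in batch 1 against 3 to 13 with vehicle, and 2 to 6 against at most 1 in batch 2, and was below the minimum for a test.

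Genes of inflammation and stress were called in small numbers against vehicle, in both directions, where 8.64% of all genes were higher and 7.4% lower. Of 19 chemokine and NF-kB genes, Cxcl9, Il1rn and Sod2 rose by 0.91, 0.54 and 0.47, and Cxcl2, Nfkb2 and Relb fell by 0.82, 0.49 and 0.38. The neutrophil chemokine Cxcl2 was at 6.98 to 10.9 CPM against 10.7 to 13.5 CPM in batch 1 and at 5.15 to 6.14 CPM against 9.55 to 14.3 CPM in batch 2, and its L2FC against culture medium was 0.75. Of 17 acute phase proteins, the fibrinogen chains Fga, Fgb and Fgg rose by 0.66, 0.65 and 0.62, as did Cp, and Itih3 fell. Fgg was among the most abundant transcripts, at 21300 to 25500 CPM against 11600 to 14700 CPM in batch 1 and at 9800 to 10300 CPM against 7250 to 8320 CPM in batch 2. Among 13 interferon genes only Ddx58, an RNA sensor, was called (0.60), and it was not called with the vehicle wells of the same plate (adjusted p = 0.0757), against culture medium, or without naproxen well B11 of either batch. Against culture medium 3 others were higher, Ifi44 by 0.79, Gbp2 by 0.64 and Stat2 by 0.37. In batch 1 alone 1 interferon gene was called lower against vehicle. Of 21 genes of the integrated stress response, Cebpb, Ddit3 and Psat1 rose, and Atf3 and Ppp1r15a fell. Cebpb, a transcription factor of liver and fat, had an L2FC of 0.72 ± 0.11. Atf3, a stress-induced repressor, was at 70 to 100 CPM against 136 to 157 CPM in batch 1 and at 74.6 to 96.7 CPM against 110 to 170 CPM in batch 2 (L2FC -0.73 ± 0.22). Psat1, which makes serine, was at 0.36 against vehicle and -0.46 against medium, and its call was lost in 16 of the alternatives, with most single wells left out among them. Cebpb was then the only gene of the list that rose without naproxen well B09 or B11 of batch 1. A fit of only naproxen and vehicle wells called more of all genes than the main fit, so the shares above are no background for its counts. In that fit, 7 of the 19 chemokine and NF-kB genes were higher and 3 lower, 8 of the 17 acute phase genes were higher and 2 lower, and 6 of the 21 genes of the integrated stress response were higher and 4 lower. Culture medium as control, against which 11.7% of all genes were higher and 12.1% lower, gave other counts, with 12 of the 19 chemokine and NF-kB genes higher and 1 lower (median 0.58). Of the 21 genes of the integrated stress response, 12 were lower than in medium and none higher by edgeR, also not at an unadjusted p under 0.05 (median -0.46).

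The p53 list moved down in part: 6 of 16 fell, with a median L2FC of -0.30, and Ddb2 rose. Plk2, a kinase of the stress response, fell by 0.63 and Zmat3, an RNA-binding target of p53, by 0.48, yet Plk2 was at 0.04 against medium. Cdkn1a and Mdm2, the best known targets, were at 0.14 and 0.01 and did not pass the test. Of 19 NRF2 targets, which protect against oxidants, Gclm and Aox1 were called, where 8.64% of all genes were higher. Against culture medium 1 of the 19 was higher and 5 were lower (11.7% and 12.1% of all genes were). Gclm, a subunit of the enzyme that starts glutathione synthesis, was at 24.6 to 27.2 CPM against 12.1 to 13 CPM in batch 1 and at 28.6 to 40.2 CPM against 11.5 to 18.8 CPM in batch 2. Its L2FC was 1.11 ± 0.19 (adjusted p = 2.36e-06), while Nqo1 and Hmox1 had 0.13 and 0.34 and did not pass. Of 14 genes of the endoplasmic reticulum, Herpud1, Edem1, Sel1l and Canx rose by 0.30 to 0.57, and 9 of the 14 were higher against culture medium. This count moved with the fit against vehicle, to 3 by DESeq2, 8 with 1 mean per treatment and batch and 11 with only naproxen and vehicle wells, and 10 were higher at an unadjusted p under 0.05. Of 10 heat shock proteins, Cryab and Hspb1 fell, and both were not called when only the vehicle wells of the same plate were used. Of 16 immediate early genes, Klf6 and Egr2 fell by 0.76 and 0.61. Over all genes 7.4% were lower. With only naproxen and vehicle wells fitted, which called more of all genes than the main fit, 5 of the 16 immediate early genes were lower and 1 higher. Against culture medium 4 of the 10 heat shock genes were lower and 1 higher.

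Genes that fell did so by less than those that rose. The largest fall was that of Fam71a, with an L2FC of -1.72 ± 0.49 (adjusted p = 0.00626) and low, uneven levels of 1.01 to 3.37 CPM against 3.72 to 10.7 CPM in batch 1 and 2.48 to 3.38 CPM against 4.68 to 13.8 CPM in batch 2. Edn1, the vasoconstrictor endothelin 1, was at 4.08, 4.34 and 5.53 CPM against 7.5, 8.77 and 10.9 CPM in batch 1 and at 7.37, 7.73 and 8 CPM against 13.2 to 21.3 CPM in batch 2. The wells were apart in both batches, with an L2FC of -1.13 ± 0.25. Ankrd1, a nuclear protein induced by mechanical stress and YAP, fell by 0.99, and the adhesion gene Itgb4 (integrin beta 4) by 0.94. Eva1c fell by 1.05 ± 0.15 (adjusted p = 1.52e-08), from 18.9 to 20.9 CPM with vehicle to 10.1 to 14 CPM with naproxen in batch 1 and from 25.2 to 35.4 CPM to 11.1 to 15.3 CPM in batch 2. Others of the 12 with the largest fall, among genes that averaged at least 50 counts and moved the same way in each batch, were Erich2, Stx11 (a syntaxin), Grik5 (a kainate receptor subunit), Dab1 (an adaptor of the reelin pathway), Calcb (a calcitonin-like peptide) and Lmln (a peptidase), with L2FC from -1.06 to -0.92. Against culture medium, Stx11 was at 0.09.

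Some calls of the genes named by the rule rested on the vehicle wells as control. Against culture medium, Itgb4, Calcb, Lmln, Cebpb, Aox1, Klf6, Per3, Cd68 and Dbp kept their sign without being called, beside Ddx58, Thrsp, Srebf1, Vegfa and Pdk1 given above. Against the other low concentrations the same was so for Fam71a, Edn1, Grik5, Itgb4, Acot2, Cyp51, Atf3, Psat1, Ddb2, Mgst1, Sult1b1, Ugt2b15, Slc22a8, Cryab, Per3, Reln and Retsat, beside Cyp2c6v1, Cyp2b3 and Pck1. Leaving out single wells ended the call of Cryab in many cases. It also ended that of Cyp2c6v1 (naproxen well B09 or B11 of batch 1, or 1 vehicle well of batch 2), Cyp2b3 (B09 of batch 1 or C09 of batch 2), Aox1 (B09 of either batch, or 1 vehicle well of batch 2) and Sult1b1 (C09 of batch 2).

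Cell type markers were read to see whether the make-up of the wells moved with treatment. In bulk wells, fewer cells of a type and less RNA per cell cannot be told apart. Of 13 hepatocyte markers tested, 6 rose and 1 fell, with a median L2FC of 0.19, where 8.64% of all genes were higher and 7.4% lower. Against culture medium 3 of the 13 were higher and 1 lower. Albumin was at 14600 to 15400 CPM against 10300 to 12100 CPM in batch 1 and at 11800 to 13100 CPM against 12300 to 14300 CPM in batch 2 (L2FC 0.09 ± 0.10, adjusted p = 0.571). The summed level of the hepatocyte list was 50600 to 52600 CPM with naproxen against 36400 to 41200 CPM with vehicle in batch 1, where the fatty acid genes rose most, and 38500 to 45100 CPM against 38500 to 44100 CPM in batch 2. Its part in the results was not tested. Asgr1 rose by 0.82 and Cps1, of the urea cycle, by 0.69, and Asgr1 was at -0.16 against culture medium. Of 8 Kupffer cell and leukocyte markers Cd14 and Cd68 rose, with a summed level of 130 to 146 CPM against 99.3 to 127 CPM in batch 1 and 77.4 to 111 CPM against 82.1 to 100 CPM in batch 2, and Cd14 was at -0.27 against medium. Of that list, 2 markers were at 0 in every well. The stellate cell list summed to 443 to 454 CPM against 495 to 508 CPM in batch 1 and 258 to 321 CPM against 317 to 409 CPM in batch 2, with only Reln called (L2FC -0.39). Against culture medium Reln was at 0.20, while 2 of the 5 tested stellate markers were lower, Tagln by 2.29 and Col1a2 by 0.42 on the log2 scale, and so was the 1 tested endothelial marker, Fcgr2b, by 0.89. For cholangiocytes the sums were 93.6 to 114 CPM against 114 to 128 CPM and 113 to 132 CPM against 121 to 140 CPM, with 1 of 4 tested markers lower and 1 marker at 0 in every well, and the 10 endothelial markers together summed to at most 8.04 CPM.

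The ST assay, run on the same lysates, gave 386 DEGs among 1760 genes, 219 higher (12.4%) and 167 lower (9.49%). Of the genes called by WT assay, 390 were also tested by ST, 388 had the same sign and 269 were called, all in the same direction. The values for Ehhadh (3.92), Fabp1 (2.54), Cyp2b2 (2.68), Cxcl12 (2.35) and Ech1 (2.19) were near those of the WT assay. Since both assays used the same wells, they share the variation between wells and are no separate replicates.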

How the data were processed

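TempO-Seq libraries of 1 plate well each were used. The authors aligned the reads with STAR 2.5.3a to rn6 (per the submitters' processing notes) and deposited counts of reads per probe (22253 WT, 2654 ST), without normalization. Wells were grouped by their labels. Counts were summed by symbol. Where a gene averaged 10 counts or more per library, it entered edgeR 4.0.16 in R 4.3.3 (quasi-likelihood test, TMM scaling), over all wells of the assay, with each treatment as a group and batch as a term, and Benjamini-Hochberg adjustment at 0.05. Batches were also fitted separately, and their difference as an interaction. Alternatives were DESeq2 1.42.0, no filter, RLE size factors, a further limit of 1 on the absolute L2FC, other sets of wells and controls, unsummed probes and leaving out each well. In counts simulated for the comparison of naproxen 80 µM with vehicle (10191 genes), 189 of 200 genes changed 2-fold were recovered with 9 false calls.

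The 34 gene lists (593 genes, 407 tested) and the naming rule were chosen with earlier results of these data known. Eligible genes had an adjusted p under 0.05 by WT assay, the same sign in each batch and an unadjusted p under 0.05 in each. Named were the 12 with the largest rise and the 12 with the largest fall among those with a mean of at least 50 counts, up to 3 per list, 9 chosen genes (among them Ptgs1, Ptgs2, Cyp4a1, Cyp1a1, Cyp2b1, Pdk4, Cpt1a and Alb) and the 5 with the smallest p for the batch difference. Genes given to fill a count of 5 or fewer, or for their role (such as Amacr, Etfb, Plin2, Fgf21, Mcm5, Cdkn1a and Nqo1), were named after their values were seen. Some of the genes the rule named are not reported here. Wells of a group differed by more than counting noise (chi-square per degree of freedom of at least 3.8), so none was a duplicate. Reads are not counts of molecules. Promoters came from RefSeq (GRCr8), with the start listed first for a gene, and no coordinates were converted.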

Additional observations from a re-analysis of the deposited data

Results flagged for a closer look

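For 9 of the named genes, the L2FC of naproxen at 80 µM against vehicle differed between the batches (edgeR interaction test, adjusted p under 0.05). The value in batch 2 minus that in batch 1 was -3.18 for Ehhadh, -2.97 for Cyp4a2, -2.79 for Cyp4a1, -2.07 for Acsl1, -1.58 for Dbp, -1.32 for Ech1, -1.31 for Retsat, -1.06 for Acaa2 and -0.82 for Vnn1. Of these, Retsat, Acsl1, Cyp4a2, Dbp and Ehhadh were named for having the 5 smallest p of this test, so the count is in part set by that choice. All 9 had the larger L2FC in batch 1.

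Vehicle wells of batch 2 were also screened for a single well apart from the other 5, over 96 genes, a screen that by chance picks out about 1 in 20 groups. It picked out 2. Sel1l, a part of the machinery that removes misfolded proteins from the endoplasmic reticulum, had 59.4 CPM in its highest vehicle well and a median of 44.3 CPM. Ptgs2 had 0.143 CPM in 1 vehicle well and was at 0 in the others.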

How the results depend on the processing

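No paired analysis was possible because the labels carry no replicate numbers, and wells were numbered in accession order. Batch, which both groups share, was a term of the fit, and with 1 mean per treatment and batch 1577 of the 1635 DEGs were called. Of 1635 DEGs with both batches, 1613 were called by DESeq2, 1592 with RLE size factors, 1341 with vehicle wells of the same plate and 807 against the other low concentrations. Fitting only naproxen and vehicle wells moved the counts to 2575 with both batches, 1580 in batch 1, 1486 in batch 2 and 106 for the batch difference. With an absolute L2FC of at least 1 they were 169, 260 and 150, and 70 by ST assay, 1267 against naproxen at 2000 µM, 919 against WY14643 at 8 µM and 43 against the other low concentrations, which gave 969 without that limit. With 1 well left out, counts ran from 1207 to 1652 with both batches, 581 to 855 in batch 1, 411 to 933 in batch 2 and 282 to 386 by ST assay. Against culture medium, which gave 2417 DEGs, 107 of the 1635 DEGs had the opposite sign of L2FC, and 7 of these were called. Of the genes named by the rule 10 turned, with Scd at -0.82, Psat1 at -0.46, Cd14 at -0.27, Asgr1 at -0.16, Alb at -0.12, Abcb11 at -0.0409, Plk2 at 0.0373, Stx11 at 0.0873, Reln at 0.20 and Cxcl2 at 0.75. Other genes given above turned too, such as Hmox1 at -0.84, Fgf21 at -0.35, Cdkn1a at -0.23 and Nfkb2 at 0.06. The cause of these shifts was not tested. Genes under a mean of 10 counts, among them most of the prostaglandin list, were beyond this depth.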

Other observations

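Further genes of fat and energy metabolism, chosen after their values were seen, were higher in both batches and more so in batch 1. Gk, glycerol kinase, had an L2FC of 2.16 in batch 1 and 0.98 in batch 2. Catalase (Cat), which breaks down the hydrogen peroxide of peroxisomes, had 1.68 and 0.84. Ephx2, the soluble epoxide hydrolase, had 2.18 and 1.16, and Acat1, a mitochondrial thiolase, 2.49 and 1.10. Mpc2, a subunit of the mitochondrial pyruvate carrier, had 1.34 and 0.72. The difference was called for each of these genes by the edgeR interaction test.

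Other genes with a called difference lie outside fat metabolism. Sult1e1, the estrogen sulfotransferase, had an L2FC of 2.80 in batch 1 and -0.07 in batch 2, and Oat, ornithine aminotransferase, had 2.52 and 0.89. Exo1 and Rad54l, which act in DNA repair, had -1.15 and 1.16 and -0.73 and 1.61, the same direction of difference as the replication genes Mcm5 and Mcm6.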
